A study of Arabidopsis thaliana with 12 samples.

Results

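The root hair growth genes described here are 9 *Arabidopsis thaliana* genes given by their AGI identifiers, and all 9 had an entry in each of the 7 deposited tables, among 22048 genes present in both fits of the study. They are *RHD6* (AT1G66470), *RSL4* (AT1G27740), *COBL9* (AT5G49270), *EXPA7* (AT1G12560), *EXPA18* (AT1G62980), *PRP3* (AT3G62680), *LRX1* (AT1G12040), *RHD2* (AT5G51060) and *RHS8* (AT1G63450). The list was chosen from values measured in these same libraries, so what follows is a description of the members and not a test of them. RNA came from whole 5-day-old seedlings of the Columbia-0 background, about 12 per library, with 2 libraries for each of 6 conditions. The mutants were *det1-1*, in which the function of *DET1*, a repressor of photomorphogenesis, is reduced but not lost, the insertion line *ubp22-1*, which affects a histone H2B deubiquitinase, and their cross *det1-1ubp22-1*. The light-grown groups (L), which had 16 h of light and 8 h of darkness per day, were *det1-1ubp22-1*, *ubp22-1*, *det1-1* and WT, and the groups grown in constant darkness (D) were *det1-1* and WT.

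The only level in the tables that is not a contrast between conditions is the authors' mean normalized count, the average of a gene's counts over 8 libraries after each library was divided by a size factor. The study fitted its libraries in 2 sets. The light-only pool is the average over the 4 light-grown genotypes, and the light-and-dark pool is the average over *det1-1* and WT in both light and darkness. The pools share 4 libraries, those of *det1-1* (L) and WT (L), and differ in the other 4, which are *det1-1ubp22-1* (L) and *ubp22-1* (L) in the light-only pool and *det1-1* (D) and WT (D) in the light-and-dark pool. Genotype and light therefore change together between the pools and cannot be told apart. No value per library was used, so no spread between replicates, depth per library or test can be given, and each ratio between the pools below is without an error. The mean total was 30521970 normalized counts in the light-only pool and 28626099 in the light-and-dark pool.

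Root hairs are tubular outgrowths of single root epidermal cells that enlarge the surface for the uptake of water and nutrients. In a hair-forming cell, basic helix-loop-helix transcription factors switch on the growth programme, reactive oxygen made by an NADPH oxidase marks the growing tip, and wall proteins and wall enzymes allow the tip to extend while it is reinforced. In whole seedlings, fewer hair cells and less RNA per hair cell cannot be told apart.

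All 9 genes had a higher mean in the light-only pool than in the light-and-dark pool, by 1.59-fold to 2.65-fold with a median of 2.31-fold. The median over all 22048 genes was 1.07-fold. All 9 exceeded 1.5-fold, which 14.3% of all genes did, while 13.5% of all genes were lower by that factor and no member was. Because the genes were selected on values from the same libraries, nothing is read from this count. Among the members, the 6 genes of the cell wall had ratios of 2.12 to 2.65. Those of the transcription factor genes and the oxidase gene lay between 1.59 and 1.89. This contrast rests on 2 transcription factor genes, and 3 of the 5 others listed below exceeded 2-fold. Of these 3, *RSL1* averaged only 7.71 normalized counts in the light-and-dark pool. A ratio above 2 was found for 2.97% of all genes and for 6 of the 9 members, the 6 wall genes. When the pools were centred on the median of all genes, *RHD6* fell short of 1.5-fold at 1.49, and *COBL9* of 2-fold at 1.98.

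**Figure D1:**
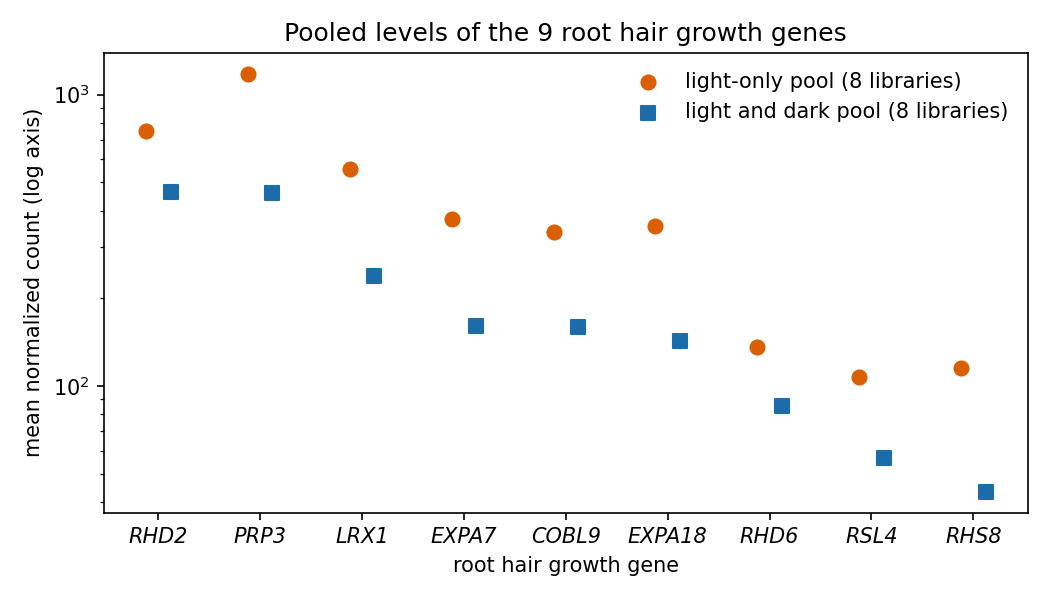
Mean normalized counts (log axis) of the 9 root hair growth genes in the light-only pool (circles) and in the light-and-dark pool (squares), each an average over 8 libraries, in order of the second; no error bars can be given. Every circle lies above its square, and the circles range from 108 for *RSL4* to 1177 for *PRP3*.

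Of the transcription factor genes, *RHD6* acts first, in the formation of hairs, and *RSL4* acts after it and sets how long a hair grows. *RHD6* averaged 136 normalized counts in the light-only pool and 85.4 in the light-and-dark pool. *RSL4* averaged 108 normalized counts in the light-only pool and 56.8 in the light-and-dark pool. Both were low for this tissue: their light-only means were above those of 33.2% (*RHD6*) and 29.9% (*RSL4*) of the genes in that pool. The ratio of the pools was 1.59 for *RHD6*, the smallest among the members, and 1.89 for *RSL4*. Per kilobase of exon, the level of *RSL4* was 0.84 times that of *RHD6* in the light-only pool and 0.71 times in the light-and-dark pool.

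*RHD6* lies at chr1:24795214-24797015 on the plus strand of TAIR10.1 with 5 exons, and *RSL4* at chr1:9654475-9656089 on the plus strand with 4 exons. The coding sequence nearest to that of *RHD6* was *RSL1*, its close relative in hair formation, with 84.5% identity over 444 aligned bases. *RSL1* was about an order of magnitude lower than *RHD6* and had a ratio of 2.17, with mean normalized counts of 16.8 in the light-only pool and 7.71 in the light-and-dark pool. The sequence nearest to *RSL4* was AT5G43175, at 74.5% identity over 459 bases. It averaged 8.82 normalized counts in the light-only pool and 3.08 in the light-and-dark pool, a ratio of 2.87. It was listed as RSL5 and left out of the counts below because the reference does not pair it with that symbol.

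*RHD2* encodes the NADPH oxidase RBOHC, which makes superoxide at the tip of the hair. It averaged 752 normalized counts in the light-only pool and 462 in the light-and-dark pool, a ratio of 1.63. *RHD2* and *PRP3* were the most abundant members in the light-and-dark pool, at 462 and 460 normalized counts. In the light-only pool they differed, with 752 normalized counts for *RHD2* and 1177 for *PRP3*. *RHD2* lies at chr5:20757199-20762461 on the minus strand and has 11 exons, the most of any member, with a coding length of 2718 bases for 905 amino acids. Its nearest coding sequence, AT4G25090 (76.4% identity over 2343 bases), averaged 257 normalized counts in the light-only pool and 134 in the light-and-dark pool, a ratio of 1.92.

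Among the members, the wall genes had the highest ratios between the pools. *PRP3*, which encodes a proline-rich structural protein of the hair wall, averaged 1177 normalized counts in the light-only pool and 460 in the light-and-dark pool, a ratio of 2.56. It was the highest member per kilobase of exon, at 964 in the light-only pool and 377 in the light-and-dark pool. Its mean stood above those of 79.0% of genes in the light-only pool and of 57.3% in the light-and-dark pool. *PRP1*, the nearest sequence to *PRP3* (72.5% identity over 1047 bases), had nearly the same ratio of 2.62, with 637 normalized counts in the light-only pool and 243 in the light-and-dark pool.

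*LRX1* encodes a leucine-rich repeat protein fused to an extensin domain, which sits in the wall of the hair. It averaged 556 normalized counts in the light-only pool and 239 in the light-and-dark pool, a ratio of 2.33. Its nearest relative *LRX2*, which acts with *LRX1* in hair growth, did not have a higher mean in the light-only pool. *LRX2* averaged 288 normalized counts in the light-only pool and 401 in the light-and-dark pool, a ratio of 0.72, with 72.7% identity to *LRX1* over 2135 bases. *LRX1* lies at chr1:4069992-4072681 on the plus strand in a single exon. Of its 2641 windows of 50 bases, the read length, 98.3% occur once in the genome, while in the other 8 members every exonic window is unique, so few reads of these genes can be shared with a copy.

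The alpha-expansins *EXPA7* and *EXPA18* loosen the wall so that it can extend. *EXPA7* averaged 373 normalized counts in the light-only pool and 161 in the light-and-dark pool, a ratio of 2.31. *EXPA18* averaged 354 normalized counts in the light-only pool and 143 in the light-and-dark pool, a ratio of 2.48. They are each other's nearest coding sequence, at 75.8% identity over 682 bases, and both have 3 exons. Their levels per kilobase of exon were also close, with *EXPA7* at 1.18 times *EXPA18* in the light-only pool and 1.27 times in the light-and-dark pool. *EXPA7* lies at chr1:4276505-4277969 and *EXPA18* at chr1:23331563-23333246, both on the plus strand. A gene on the opposite strand overlaps each of them, by 23 bases (AT1G12570) and 46 bases (AT1G62978). The libraries were made with a stranded kit, per the labels, but the counting command in the study's methods names no strand setting, so whether reads from these overlaps were told apart is not known.

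*COBL9* encodes a COBRA-like protein needed for the hair to elongate, and *RHS8* encodes an enzyme that adds galacturonic acid to xyloglucan, a wall polysaccharide. *COBL9* averaged 337 normalized counts in the light-only pool and 159 in the light-and-dark pool, a ratio of 2.12. *RHS8* was the least abundant member per kilobase of exon, with 34.6 in the light-only pool and 13.0 in the light-and-dark pool, and it had the highest ratio, 2.65, from means of 115 and 43.4 normalized counts. Only 81 of the 22048 genes had a ratio as high as that of *RHS8* or higher, itself included. *COBL9* lies at chr5:19971884-19974530 on the minus strand, *RHS8* at chr1:23531240-23534569 on the plus strand and *PRP3* at chr3:23182722-23184042 on the plus strand. *COBL7*, the nearest relative of *COBL9* at 66.8% identity over 1725 bases, had a lower ratio of 1.25, with 638 normalized counts in the light-only pool and 510 in the light-and-dark pool.

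**Figure D2:**
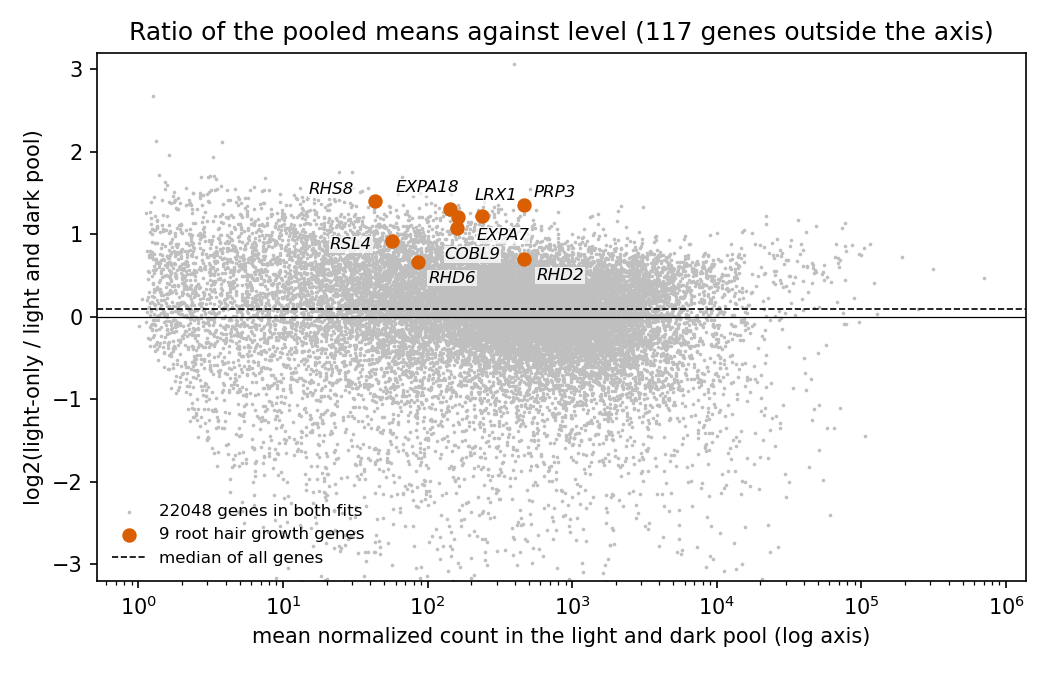
Log2 ratio of the light-only pool to the light-and-dark pool against the mean normalized count in the light-and-dark pool (log axis) for 22048 genes (grey) and the 9 root hair growth genes (orange), with the median of all genes as a dashed line. The members lie between 0.67 and 1.41 on the log2 axis, above the median of all genes, and the 6 wall genes lie above 1 on the log2 axis.

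The light-and-dark means of the members lay between 43.4 and 462 normalized counts, above those of 19.5% (*RHS8*) to 57.4% (*RHD2*) of the genes in that pool. Of the 8453 genes in that range of means, 14.6% exceeded a ratio of 1.5 and 2.63% a ratio of 2, so the background at this level was close to that over all genes. Since the pools share 4 libraries, the difference between the other 4 libraries of each follows by arithmetic where both fits have the same scale. For *PRP3* the *det1-1ubp22-1* (L) and *ubp22-1* (L) libraries then averaged 1434 normalized counts more than the *det1-1* (D) and WT (D) libraries. The same difference was 101 normalized counts for each of *RHD6* and *RSL4*, 144 for *RHS8* and 580 for *RHD2*. It was 423 for each of the expansin genes, 356 for *COBL9* and 635 for *LRX1*. On the same condition, the ratio of the pools is the smallest ratio that these light-grown mutants can have to the dark-grown seedlings, since the shared libraries add the same amount to both pools. Centring the pools on the median of all genes lowers the difference for *PRP3* to 1284 and that for *RHD6* to 83.4 normalized counts. The scale of the shared libraries in each fit is not given by the pooled means.

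The sequence before some of these genes holds a feature that is not a level of RNA. The root hair element is a short sequence found in front of many genes of hair cells and bound by RSL4. In the 250 bases before the annotated start, searched on both strands, a match was present for 4 of the 9 members (44.4%) and for 207 of 27443 protein-coding genes (0.754%). The 4 matches are shown because they let the letters before these wall genes be compared, although the search pattern fixed part of these letters. The element is in capitals with up to 6 flanking bases on each side, read 5′ to 3′ on the strand that holds the match, from RefSeq TAIR10.1.
EXPA7: aaaaggATAGTGATCCGCACGTAgccacc
EXPA18: aaaacaAACATGAACGCACGTCcattac
LRX1: tcctcaAACTTGGACGCACGTTcctaga
PRP3: cataccTAAGTGTAATGCACGATcaaaaa

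All 4 matches hold the letters GCACG, but the search itself required CACG after a G or a T, so only the first G was free to differ. The match of *EXPA7* lies 78 to 62 bases before its start (chr1:4276427-4276443) and that of *EXPA18* 40 to 25 bases before (chr1:23331523-23331538), both on the strand of the gene. The match of *LRX1* lies 93 to 78 bases before its start (chr1:4069899-4069914) and that of *PRP3* 167 to 151 bases before (chr3:23182555-23182571), both on the opposite strand. All 4 genes encode wall proteins and had pool ratios between 2.31 and 2.56. No match was found in this window for *RHD6*, *RSL4*, *RHD2*, *COBL9* or *RHS8*, which says only that these letters are not there. Of these, the wall genes *COBL9* and *RHS8* had pool ratios of 2.12 and 2.65, below and above the range of the genes with a match. The element was first described before *EXPA7*, *EXPA18* and related genes, so their matches are no independent observation, and binding was not measured in these data.

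Other genes of root hair development were taken from a list of 48 by role, all of them measured in both pools. Of these, 29 exceeded a ratio of 1.5 (14.3% of all genes did) and 1 was lower by that factor (13.5% of all genes were). The other 18 lay between, and the median ratio was 1.70, beside 1.07 over all genes. The list was drawn up with earlier results of these data known, so nothing is read from these counts. A root hair element was present before 5 of the 48 (10.4%), beside 0.754% of all protein-coding genes. Whether earlier work used the element to find any of these genes was not examined, so this count is no independent observation. Of 18 genes listed under the cell wall, none was lower by 1.5-fold, as 13.5% of all genes were. Above 2-fold were 13 of them, and 2.97% of all genes. Above 1.5-fold were 15 of them, and 14.3% of all genes. The exceptions were the most abundant, *CSLD3* and *CSLD2*, which encode cellulose synthase-like proteins, and *LRX2*. *CSLD3* averaged 1973 normalized counts in the light-only pool and 1871 in the light-and-dark pool. *CSLD2* averaged 1522 normalized counts in the light-only pool and 1570 in the light-and-dark pool. *RHS15*, the lowest of this group, is annotated as a glycerol-3-phosphate permease, which is not a wall protein. It had the highest ratio among them, 2.95, from 89.4 normalized counts in the light-only pool and 30.3 in the light-and-dark pool. Whether every other gene listed under the cell wall encodes a wall protein was not checked.

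**Figure D3:**
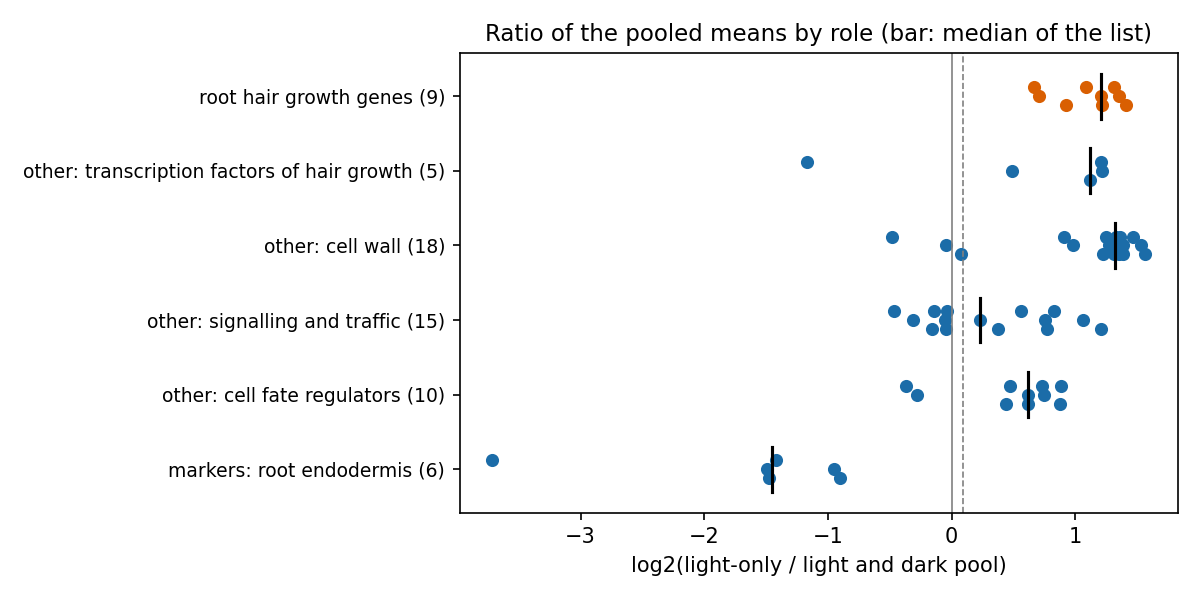
Log2 ratio of the light-only pool to the light-and-dark pool for the 9 root hair growth genes, for 48 other root hair genes by role and for 6 markers of the root endodermis; each point is a gene, the bar is the median of the list, the solid line is equality and the dashed line is the median of all genes. Of the 18 other genes listed under the cell wall 15 lie above a ratio of 1.5, as do 14.3% of all genes. The endodermal markers, *CASP1* to *CASP5* and *PER64*, have a median ratio of 0.37.

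The other transcription factors of hair growth were not uniform. Of 5, 3 (*RSL1*, *RSL2* and *LRL3*) exceeded both 1.5-fold and 2-fold, thresholds that 14.3% and 2.97% of all genes passed. *LRL1* was lower, with 682 normalized counts in the light-only pool and 1534 in the light-and-dark pool. Its relative *LRL2* averaged 269 normalized counts in the light-only pool and 192 in the light-and-dark pool. Of 15 genes of signalling and membrane traffic, 5 were above 1.5-fold, as were 14.3% of all genes, and 10 lay between. The receptor kinase gene *FER*, the most abundant of these, averaged 7432 normalized counts in the light-only pool and 10255 in the light-and-dark pool. *RHD3*, which shapes the endoplasmic reticulum, averaged 3769 in the light-only pool and 3912 in the light-and-dark pool. The kinesin gene *ARK1*, the lowest of these in the light-and-dark pool, averaged 107 normalized counts in the light-only pool and 46.7 in the light-and-dark pool, a ratio of 2.30.

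Among 10 regulators that decide which epidermal cells form hairs, 6 were above 1.5-fold and 4 between, and none reached 2-fold. Over all genes, 14.3% were above 1.5-fold and 2.97% above 2-fold. *TTG1*, a general regulator of epidermal fate, averaged 1410 normalized counts in the light-only pool and 1713 in the light-and-dark pool. The receptor-like kinase gene *SCM* averaged 404 in the light-only pool and 241 in the light-and-dark pool. *ETC1*, a small MYB factor and the lowest of this group, averaged 18.7 normalized counts in the light-only pool and 24.3 in the light-and-dark pool.

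Markers of other cells in the seedlings also differed between the pools. All 6 listed markers of the root endodermis, *CASP1* to *CASP5* and *PER64*, were lower by over 1.5-fold in the light-only pool, as were 13.5% of all genes. Their ratios ran from 0.076 for *CASP5* to 0.54 for *PER64*. No other gene was listed under the endodermis, so nothing is read about that cell layer as a whole. Of the markers of non-hair epidermis, *WER* had a ratio of 1.66 and *GL2* one of 1.35. *SCR* and *SHR*, of the root ground tissue and stele, were close to equal, with 1786 and 497 normalized counts in the light-only pool and 1616 and 566 in the light-and-dark pool. The 3 markers of green tissue had ratios of 1.38 to 2.11 and means of at least 154581 normalized counts in the light-only pool and 73298 in the light-and-dark pool. The stomatal marker *FAMA* had a ratio of 1.41, with 309 normalized counts in the light-only pool and 219 in the light-and-dark pool. The trichome marker *GL1* exceeded 1.5-fold as the members did, with a ratio of 1.84 from 32.7 normalized counts in the light-only pool and 17.8 in the light-and-dark pool. The part of a changed share of root or shoot in the ratios of the members was not tested.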

How the data were processed

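Single-end reads of 50 bases from 12 libraries were mapped by the authors to TAIR10 with STAR and counted per gene with HTSeq, and DESeq2 was fitted to 8 libraries at a time. The submitters' processing notes name CASAVA 1.8. The deposited signal used here is the mean normalized count over the 8 libraries of a fit. It was the same in all tables of that fit, 3 for the light-only pool and 4 for the light-and-dark pool. Each of the 7 tables also holds 5 columns of the authors' own comparisons (log2 fold changes, their standard errors, Wald statistics, p-values and adjusted p-values). These were not used. The 1 total per table was left out, which left 22400 genes in the light-only pool and 22318 in the light-and-dark pool. The pools were normalized separately, so their ratio is a description and no test was made. The division of the pools was tried on simulated counts. These had no shared libraries, no spread between replicates and no separate size factors, so the trial bears only on the arithmetic.

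Genes past 1.5-fold were counted over genes in both fits. The members and gene lists were chosen with earlier results of these data known. All 9 members are named. From each list the text names the 2 genes with the highest and the 1 with the lowest mean in the light-and-dark pool, the relatives nearest to a member, and the cell type markers. *LRX2* and *LRL1* fall under this rule, but their direction was pointed out after their values were seen. *RSL2* and *LRL3* are named for passing 2-fold, also after their values were seen. Of the list identifiers, 2 were dropped because the reference does not pair them with the listed symbol (RSL3 and RSL5). Gene models, the transcript with the longest exons and promoters came from RefSeq TAIR10.1, whose annotation may differ from that of the authors. Nearest coding sequences were found with blastn 2.17.0 at an E-value of at most 1e-10. Calculations were made in Python 3.11.15 (pandas 2.3.3, NumPy 2.4.6), and plots with matplotlib 3.10.9.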

Additional observations from a re-analysis of the deposited data

How the results depend on the processing

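The median ratio of the members was 2.31 with the deposited size factors, 2.16 when the pools were centred on the median of all genes and 2.17 when scaled to each pool's sum. Each rescaling divides all ratios by 1 constant, so no member could turn its direction. With either, 8 of 9 members exceeded 1.5-fold, and *RHD6* did not, at 1.49 in each; when centred, 2243 of all 22048 genes did, in place of 3149. At 2-fold, 654 genes were counted over all genes, 6 in place of 9 members and 18 in place of 29 other root hair genes. The counts after rescaling, the 2-fold count of other root hair genes and the next count were chosen after seeing the data. Within the members' range of light-and-dark means 1235 genes exceeded 1.5-fold, since fewer genes were counted there. The median level of the members in the light-and-dark pool was 88.8 per kilobase of exon and 107 per kilobase of coding sequence, which is shorter by construction. On the gene's own strand alone 2 of 9 members held a root hair element in place of 4, as did 3 of 48 other root hair genes and 0.419% of all genes. No paired analysis was possible because no value per library was used. For the same reason leaving out a replicate was not possible and the sequencing depth of each library is unknown.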
